A study of Mus musculus with 6 samples.

Results

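The complement genes C1ra, C1s1, C4b, C3, Cfb, Cfd, C7 and Serping1 were described in fibroblasts of the mouse Achilles tendon. These 8 genes were taken by their symbols from the 33696 genes of the deposited count tables. Fibroblasts were read as cells with at least 1 UMI (unique molecular identifier, the tag that marks 1 captured transcript) of Pdgfra, a receptor that marks fibroblasts and other mesenchymal cells, and they are called Pdgfra cells here. There were 6 single-cell RNA libraries, in which cells of Gli1-CreERT2; Ai9 mice given tamoxifen had been sorted by the tdTomato reporter into Gli1+ and Gli1- cells. Each sort was taken from uninjured tendon, at 7 days after tenotomy (7 dpi) and at 21 dpi. All groups carried the same alleles and had received tamoxifen, the reporter marks descent from a cell that used Gli1 and not the present transcript, and the age of the mice was not given in the sources used here. The labels name 8 mice per time point and 24 in all, pooled by time point, so that each of the 6 conditions was 1 library. With no replicate of any condition, differences between conditions were not tested, no p-value is given, and the intervals stated are 95% intervals for counting error only.

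Complement is a set of plasma proteins and their receptors that tag cells and debris for removal. The classical pathway starts when C1q binds a target and the proteases C1r and C1s, here from C1ra and C1s1, cut C4. C3 is the component on which all pathways meet, factor B (Cfb) and factor D (Cfd) are the proteases of the alternative pathway that amplifies C3 cleavage, and C7 belongs to the terminal complex that inserts into membranes. Serping1 encodes C1 inhibitor, which blocks C1r and C1s. Although the liver makes most plasma complement, fibroblasts are a known local source, and Cfd is best known as a product of fat cells.

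The promoters of C1ra, C1s1, C3 and C7 are shown because C1ra and C1s1 encode partner proteases, C3 is the component shared by all pathways and C7 had the widest range of levels in Pdgfra cells, as a fold. They come from RefSeq on GRCm38.p6, each from 250 bases before to 50 bases after the annotated start, 5′ to 3′ on the strand of the gene. RefSeq promoters matched 5 of the 8 genes, with none for C4b, Cfb and Serping1. The fifth, that of Cfd, held none of the motifs searched. For C1s1, which had 2 windows, the one further upstream is shown. Capitals mark matches to the C/EBP motif TTNNGNAA, the STAT motif TTCNNNGAA or the TATA motif TATAAA on either strand.
C1ra: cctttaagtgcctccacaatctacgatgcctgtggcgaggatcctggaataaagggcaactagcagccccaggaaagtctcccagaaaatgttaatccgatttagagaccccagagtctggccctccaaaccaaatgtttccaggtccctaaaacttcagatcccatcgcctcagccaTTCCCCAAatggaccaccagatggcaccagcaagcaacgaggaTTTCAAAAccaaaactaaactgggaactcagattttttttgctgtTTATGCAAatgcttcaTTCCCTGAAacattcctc
C1s1: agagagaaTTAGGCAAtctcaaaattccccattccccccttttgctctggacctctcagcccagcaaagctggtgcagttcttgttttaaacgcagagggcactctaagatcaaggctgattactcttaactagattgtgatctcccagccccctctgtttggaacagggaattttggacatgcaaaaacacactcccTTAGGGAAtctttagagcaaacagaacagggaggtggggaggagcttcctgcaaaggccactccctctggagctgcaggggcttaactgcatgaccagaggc
C3: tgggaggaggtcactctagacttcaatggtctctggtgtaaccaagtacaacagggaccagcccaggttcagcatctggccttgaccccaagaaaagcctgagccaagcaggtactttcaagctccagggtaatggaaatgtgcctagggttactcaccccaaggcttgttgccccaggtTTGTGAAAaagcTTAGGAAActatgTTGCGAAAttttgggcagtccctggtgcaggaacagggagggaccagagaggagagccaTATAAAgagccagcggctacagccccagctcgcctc
C7: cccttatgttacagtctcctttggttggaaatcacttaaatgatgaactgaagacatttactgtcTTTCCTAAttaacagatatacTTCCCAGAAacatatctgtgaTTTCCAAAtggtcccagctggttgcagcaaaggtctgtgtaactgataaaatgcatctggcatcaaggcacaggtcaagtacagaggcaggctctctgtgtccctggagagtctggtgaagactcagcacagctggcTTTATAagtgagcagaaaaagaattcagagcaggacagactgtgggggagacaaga
These windows lie at chr6:124512371-124512670 on the plus strand, chr6:124542310-124542609 on the minus strand, chr17:57228087-57228386 on the minus strand and chr15:5063724-5064023 on the minus strand. The C/EBP motif occurred 3 times in C1ra, 2 times in C1s1, 3 times in C3 and 2 times in C7, and 40.7% of 32851 promoters of the same length held at least 1. The 3 matches in C3 lay at positions -70, -58 and -45, counted from the start by their first base, and no matches overlapped. The STAT motif occurred 1 time in C1ra and 1 time in C7, against 8.30% of all promoters, and the TATA motif 1 time in C3 and 1 time in C7, against 13.6%. The TATA matches lay at position 15, after the start, in C3 and at -6 on the opposite strand in C7. The STAT matches lay at 33, after the start, in C1ra and at -164 in C7. Neither an NF-kappa B motif, in 4.79% of all promoters, nor an interferon response motif, in 3.44%, was found in the 5 windows. In GENCODE M21 on GRCm38, C1ra (chromosome 6, 124512405 to 124523443) and C1s1 (124530345 to 124542359) are neighbours separated by 6901 bases and read towards each other. GENCODE places the start of C1ra within the window shown, upstream of the RefSeq start used for it. All marked motifs of C1ra thus lie inside the gene as GENCODE has it. C4b (chromosome 17, 34728380 to 34743882) and Cfb (34856374 to 34862518) lie 112491 bases apart, C3 lies further along the same chromosome (57203970 to 57228136), and Cfd (chromosome 10, 79890853 to 79892655), C7 (chromosome 15, 4988762 to 5063740) and Serping1 (chromosome 2, 84765387 to 84775444) lie elsewhere.

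After the cell filters the libraries held 7057 to 10882 cells and 53564928 to 107887022 UMIs, and any pair of libraries shared 27 to 75 cell barcodes, at most 0.534% of the smaller library. The Gli1+ sort gave 1774, 4790 and 5255 Pdgfra cells (uninjured, 7 and 21 dpi) and the Gli1- sort 5108, 6581 and 5530, with median UMIs per cell between 5944 and 11934. Their summed level of 5 mesenchymal markers, Pdgfra included, was 25720 to 37179 CPM (UMIs of a gene per 1000000 UMIs). The labels name an equal sex distribution, yet the libraries stood apart by sex. Of the Pdgfra cells with either Xist or Y-linked UMIs but not both, 3692 of 3692 were Y-linked in the Gli1+ library at 7 dpi and 3683 of 3683 in the uninjured Gli1- library, whereas the Xist share was 99.9% in the Gli1+ library at 21 dpi and 73.3% in the uninjured Gli1+ library. Among Gli1- cells the library of day 7 was 99.98% Y-linked and that of day 21 was 99.96% Xist. Sex therefore changed together with time. For the Gli1- cells at 21 dpi the effects of injury and sex cannot be told apart. The same holds for time and sex in 21 over 7 dpi, in both sorts. The uninjured Gli1+ library also differed in make-up. Of its 7057 cells 38.5% had T cell markers (2716 cells) and 25.1% were Pdgfra cells. The Gli1+ libraries at 7 and 21 dpi held 4 such T cells each and 51.8% and 53.7% Pdgfra cells. Keratin and other epidermal markers summed to 3522 CPM in Pdgfra cells of the Gli1+ library at 7 dpi and to 31.0 to 521 CPM in the other 5, and the pan-immune gene Ptprc reached 47.2 CPM in the uninjured Gli1+ library and at most 0.2 CPM elsewhere. Their part in the results was not tested. Markers of skeletal cells also moved with injury in Pdgfra cells. In the order uninjured, 7 and 21 dpi, bone markers summed to 1598, 2.8 and 615 CPM (Gli1+) and to 57.2, 24.1 and 353 CPM (Gli1-), chondrocyte markers to 95.6, 132 and 498 CPM and to 7.2, 234 and 990 CPM, and tenocyte markers to 1335, 901 and 1963 CPM and to 266, 737 and 1694 CPM. Without the cells that held chondrocyte or bone markers, 72 log2 ratios of the members moved by at most 0.056.

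Of the 8 genes, C1ra, C1s1, C4b, C3, Cfb and Serping1 were at 54.4 CPM or more in Pdgfra cells of every library. C7 was at 105 and 161 CPM in those of the uninjured libraries, but at 3.48 to 8.50 CPM in those of the injured ones. Cfd was at no more than 7.6 CPM in Pdgfra cells. In whole libraries, C3 lay between 157 and 819 CPM, Serping1 between 545 and 1470.1, C1s1 between 85.9 and 286, C1ra between 40.2 and 133, C4b between 41.5 and 165, Cfb between 32.8 and 191, C7 between 2.99 and 75.9 and Cfd between 0.42 and 12.9. Pdgfra cells contributed 28.3% of all UMIs in the uninjured Gli1+ library and 58.4% to 78.3% in the others, but held 81.9% to 90.3% of the C3 UMIs of each library. They also held 71.1% to 85.8% of the Serping1 UMIs, 70.3% to 85.5% of those of C1s1 and 78.2% to 87.7% of those of Cfb. Cfd went the other way in the Gli1- sort. There Pdgfra cells held 10.4%, 7.6% and 30.5% of its UMIs (uninjured, 7 and 21 dpi), beside 62.8%, 78.3% and 60.5% of all UMIs. In the Gli1+ sort they held 29.6%, 70.3% and 89.3% of the Cfd UMIs, beside 28.3%, 61.0% and 58.4% of all UMIs.

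Marker-defined cells separated the members by where they were found. C3 was at 240.5 to 1178 CPM in Pdgfra cells and at no more than 186 CPM in mural, endothelial, lymphatic endothelial, Schwann, epidermal, myeloid and T cells of any library, so the ranges did not overlap. C1s1 was as high in mural cells, the contractile cells that wrap vessels, as in fibroblasts. It reached 167 to 343 CPM in mural cells against 122 to 387 CPM in Pdgfra cells, and mural cells were higher in 5 of 6 libraries. In the uninjured Gli1+ library, where mural cells numbered 94, the mural interval for C1s1 was 219 to 302 CPM and included the level of 255 CPM in Pdgfra cells, and at 7 dpi in the Gli1- sort (197 against 191 CPM) the mural interval of 178 to 216 CPM did so too. Serping1 was at 463 to 1515 CPM in mural cells and at 680.2 to 2008 CPM in Pdgfra cells, and was higher in mural cells in 2 libraries, both Gli1+ and injured. C4b was the member with 2 other sources. Myeloid cells, present in number only in the uninjured Gli1+ library (251 cells), held C4b at 189 CPM (172 to 208), above the 84.8 CPM of the Pdgfra cells of that library, while C1ra and C1s1 were at 3.6 and 4.0 CPM in them. Schwann cells, the glia of peripheral nerve, held C4b at 213 CPM in the uninjured Gli1- library, 136 CPM at 7 dpi and 117 CPM at 21 dpi. In that order the Pdgfra cells of the same libraries were at 229.9, 99.8 and 175 CPM. Pdgfra cells held 57.8% of the C4b UMIs of the uninjured Gli1+ library, where they held 28.3% of all UMIs, against 80.0% to 87.5% of the C4b UMIs in the other 5. Cfb was at 94.9 to 216 CPM in Pdgfra cells, at 9.6 to 84.5 CPM in endothelial cells and at 3.3 to 123 CPM in mural cells, whose range overlapped that of the Pdgfra cells, although within each library mural cells were lower. T cells, which should lack all 8 genes, were read in the uninjured Gli1+ library alone. They were at 4.2 CPM of C3, 16.4 CPM of Serping1 and no more than 2.4 CPM of the other 6. The epidermal cells of the Gli1- library at 21 dpi, 97 in number, held Serping1 at 617 CPM, against 50.5 to 206 CPM in the epidermal cells of the Gli1+ libraries. Levels in marker-defined types depended on the gate. With at least 3 markers in place of 2, 78 of 192 such levels moved, with largest changes of -505 and 115 CPM. Without doublet removal 29 of 192 moved. Which of the levels above moved is not given here.

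**Figure D1:**
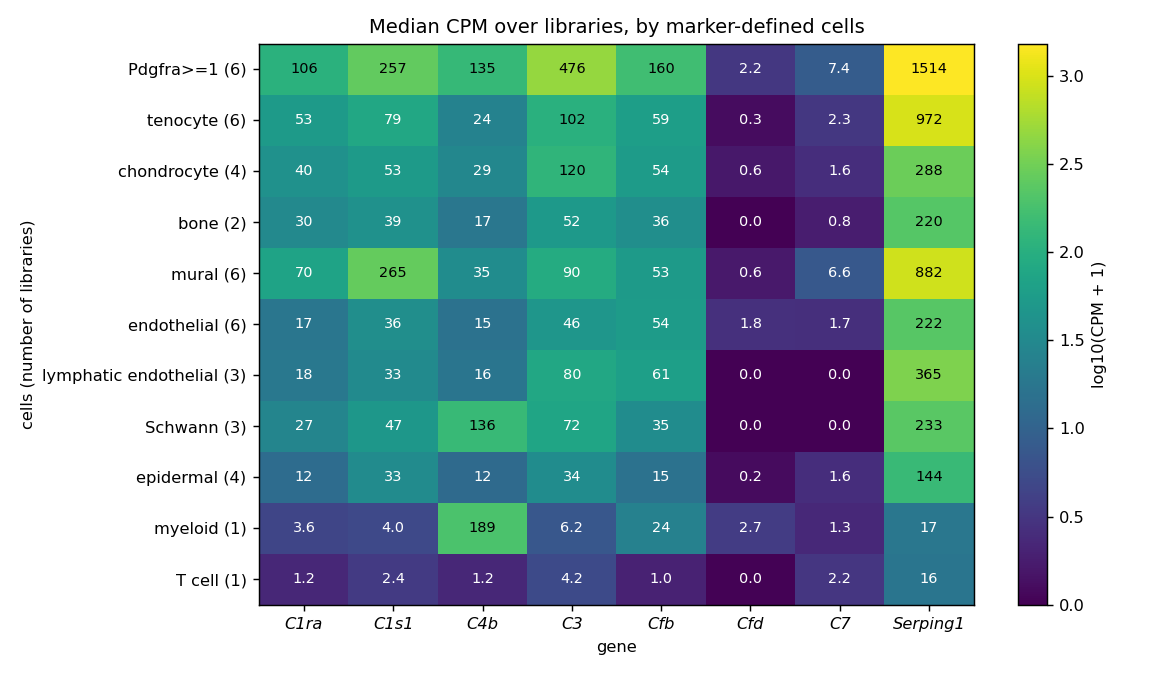
Median CPM over libraries of the 8 genes (columns) in Pdgfra cells and in marker-defined cells (rows, with the number of libraries that had at least 50 such cells); colour is log10(CPM + 1), and levels are to be compared down a column, since UMIs are not scaled by transcript length. C3 was highest in Pdgfra cells, C1s1 was about as high in mural cells, C4b was also high in myeloid and Schwann cells, and Cfd was near 0 throughout; tenocyte, chondrocyte and bone cells may also be Pdgfra cells.

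Within the mesenchymal cells, cells with the tendon markers Scx, Tnmd, Fmod and Thbs4 (at least 2 of 4) held less of most members than Pdgfra cells as a whole. These tenocyte-like cells partly overlap the Pdgfra cells. C3 was at 75.6 to 228 CPM in them and C4b at 20.1 to 63.2 CPM, and both were below the Pdgfra cells in all 6 libraries. Serping1 was closer, at 407 to 1144 CPM. Chondrocyte-like cells, which numbered 50 or more in the 4 injured libraries, held 112 to 143 CPM of C3 and 19.2 to 35.2 CPM of C4b.

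**Figure D2:**
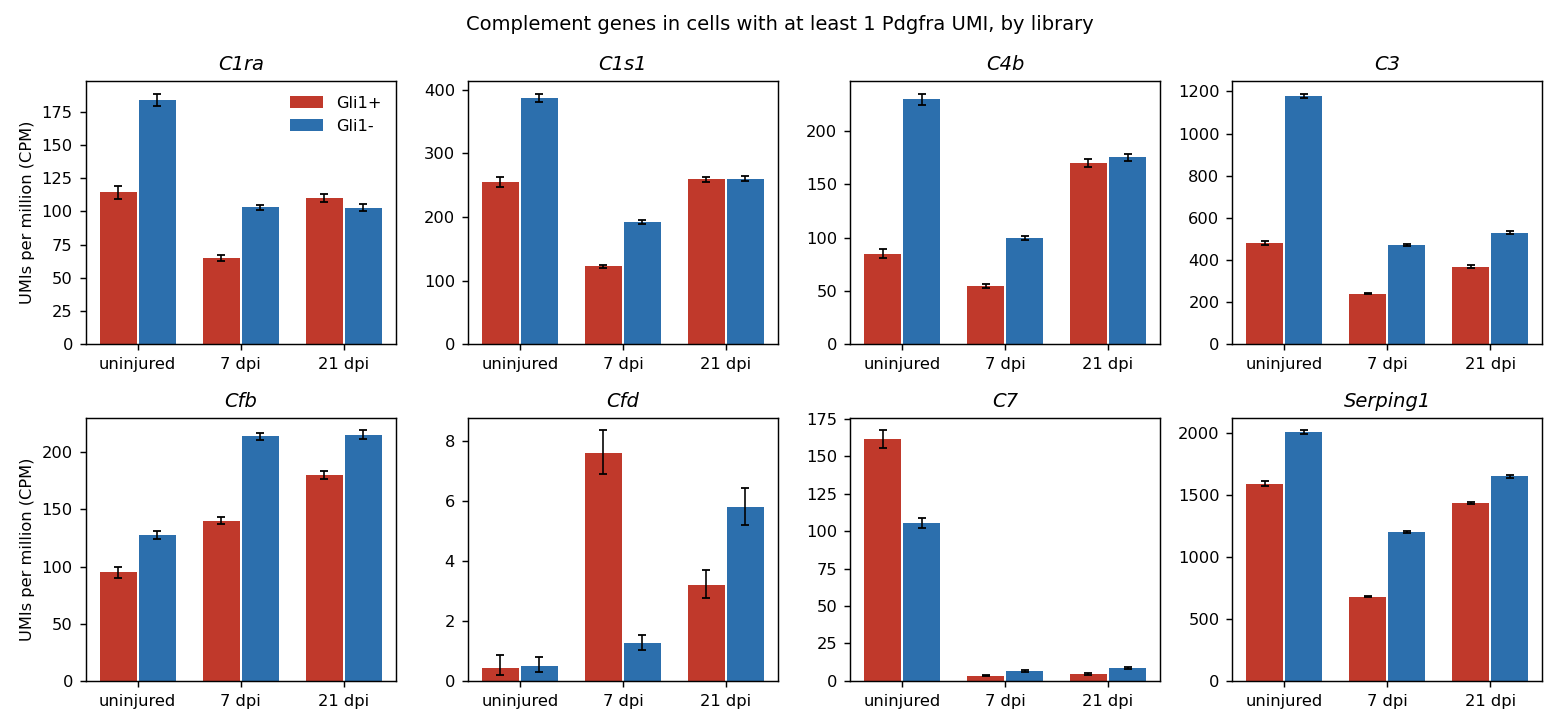
CPM of each gene in Pdgfra cells (vertical axis, its own scale per gene) in the uninjured, 7 dpi and 21 dpi libraries of the Gli1+ and Gli1- sorts; bars start at 0 and error bars are exact Poisson 95% intervals for counting error. C1ra, C1s1, C4b, C3 and Serping1 were lower at 7 dpi than without injury in both sorts, Cfb was higher, and C7 was high only in the uninjured libraries.

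The change with injury was set against all 10793 genes with a mean of at least 5 CPM, a group that includes 7 of the 8 members and leaves out Cfd. At 7 dpi, 3 of the 7 were at least 2-fold lower than without injury in the Gli1+ sort (C1s1, C7 and Serping1), where 14.8% of all genes were, and 4 of 7 in the Gli1- sort (C1s1, C4b, C3 and C7), where 11.4% were. None was 2-fold higher at 7 dpi, against 10.3% and 11.0% of all genes. At 21 dpi, C7 alone was 2-fold lower and C4b alone 2-fold higher in the Gli1+ sort, with 11.9% of all genes lower and 6.3% higher, and C3 and C7 were lower in the Gli1- sort, with 11.0% of all genes lower and 9.63% higher. The median log2 ratio of the 7 members was -0.996 (Gli1+) and -1.02 (Gli1-) at 7 dpi, beside -0.12 and -0.04 over all genes, and -0.06 and -0.58 at 21 dpi, beside -0.21 and -0.07. Scaling by TMM, which sets libraries by the bulk of their genes, moved the median of all genes in the Gli1+ sort by 0.29 (7 dpi) and 0.44 (21 dpi) and in the Gli1- sort by 0.12 and 0.18, and left 1 of 7 members (C7) 2-fold lower at 7 dpi in the Gli1+ sort. Of all genes in the Gli1+ sort, 1116 were 2-fold higher and 1594 lower at 7 dpi, against 1788 and 1022 with TMM, and 680 were higher and 1287 lower at 21 dpi, against 1605 and 623. With cells thinned to 2000 UMIs, or with each cell given equal weight, C7 was the 1 member left 2-fold lower at 7 dpi in either sort. Of 12 alternative settings, C1s1 was short of 2-fold in 5 (Gli1+) and 9 (Gli1-), Serping1 in 4 (Gli1+), and C4b and C3 in 2 each (Gli1-). At 21 dpi C4b (Gli1+) was short of 2-fold in 3 of 12 and C3 (Gli1-) in 3 of 11. Both times of a sort share its uninjured library. The make-up of the Pdgfra cells changed with injury as well. Cells with Tnn, a matrix gene, were 1.52%, 59.7% and 27.8% of Pdgfra cells in the Gli1+ sort (uninjured, 7 and 21 dpi) and 0.37%, 53.4% and 29.0% in the Gli1- sort. Cells with both Scx and Fmod were 8.06%, 17.0% and 19.3% and 0.74%, 13.6% and 15.8%. Early-response genes that also react to tissue dissociation were lower at 7 dpi, with 7 of 10 at least 2-fold lower in Gli1+ cells and 8 of 10 in Gli1- cells. At 21 dpi 1 of 10 was 2-fold lower in Gli1+ cells and 6 of 10 in Gli1- cells, and none was 2-fold higher at either time. Their part in the results was not tested.

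Both classical pathway proteases were lower at 7 dpi than without injury in each sort. C1ra was at 114, 64.9 and 110.1 CPM for Gli1+ cells (uninjured, 7 and 21 dpi) and at 184, 103 and 103 CPM for Gli1- cells. C1s1 was at 255, 122 and 259 CPM for Gli1+ cells and at 387, 191 and 259.8 CPM for Gli1- cells. Both genes were lowest at 7 dpi in the Gli1+ sort and were near the uninjured level at 21 dpi, whereas in the Gli1- sort both stayed under it. From 7 to 21 dpi in the Gli1- sort C1s1 was higher (log2 ratio 0.44), while C1ra was at 103 CPM in both libraries. At 7 dpi, C1ra was 1.76-fold lower than without injury in Gli1+ cells (log2 ratio -0.82, interval -0.90 to -0.74) and 1.79-fold lower in Gli1- cells (-0.84, -0.89 to -0.79). C1s1 was 2.08-fold lower (-1.06, -1.11 to -1.004) and 2.02-fold lower (-1.02, -1.05 to -0.98), and the second was short of 2-fold in 9 of 12 alternative settings. At 21 dpi in Gli1+ cells the log2 ratio over uninjured was -0.06 for C1ra and 0.03 for C1s1, both with intervals that include 0, and for C1ra TMM scaling gave 0.38 and thinning to 2000 UMIs 0.12, a turned sign. The sign turned in 5 of 12 alternative settings for C1ra and in 3 of 12 for C1s1, whose values ran from -0.49 to 0.46. Each has a near copy in the genome, C1rb and C1s2, which held at most 0.3 and 1.1 CPM in Pdgfra cells, and reads may be split between copies.

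C4b, cut by C1s, was at 84.8, 54.4 and 169.9 CPM for Gli1+ cells and at 229.9, 99.8 and 175 CPM for Gli1- cells. It was lowest at 7 dpi in both sorts, and 1.56-fold lower in Gli1+ cells (log2 ratio -0.64, -0.73 to -0.55) and 2.3-fold lower in Gli1- cells (-1.20, -1.25 to -1.16) than without injury. From 7 to 21 dpi it was 3.12-fold and 1.76-fold higher. The libraries of these times also differed in sex in both sorts. Effects of time and sex therefore cannot be told apart in any ratio or count of 21 over 7 dpi. In the Gli1+ sort 3 of 7 members were 2-fold higher at 21 than at 7 dpi (C4b, C1s1 and Serping1), where 3.18% of all genes were, and in the Gli1- sort 0 of 7, where 3.04% were. Of 11 alternative settings, C1s1 was short of 2-fold in 4 and Serping1 in 3, and with at least 2 Pdgfra UMIs C4b was the 1 member left. None of the 7 was 2-fold lower at 21 than at 7 dpi, against 4.15% and 2.63% of all genes. C4b at 21 dpi was 2.0-fold above the uninjured level in Gli1+ cells and 1.31-fold below it in Gli1- cells. The first log2 ratio was 0.12 without the cells that held Pi16 or Dpp4, and the second turned to 0.13 when cells were thinned to 2000 UMIs and to 0.12 when each cell had equal weight. Its close copy C4a was at 0.4 CPM or less in every library.

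C3 was at 479.6, 240.5 and 369 CPM for Gli1+ cells and at 1178, 471 and 529 CPM for Gli1- cells. The uninjured Gli1- library stood above all others. At 7 dpi C3 was 1.99-fold lower than without injury in Gli1+ cells (log2 ratio -0.996, -1.03 to -0.96) and 2.5-fold lower in Gli1- cells (-1.32, -1.34 to -1.30). At 21 dpi it was 1.3-fold lower (-0.38) and 2.23-fold lower (-1.15), but TMM scaling took the first to 0.06, a turned sign. Thinning to 2000 UMIs gave a ratio for Gli1- cells of -0.71 (7 dpi) and -0.66 (21 dpi), and for Gli1+ cells of -0.53 (7 dpi).

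Apart from Cfd, the alternative pathway protease Cfb was the one member above its uninjured level at both times in both sorts. It was at 94.9, 140.0 and 179.9 CPM for Gli1+ cells and at 128, 214 and 216 CPM for Gli1- cells, and each injured library was above the uninjured library of its sort. The log2 ratio over uninjured was 0.56 (0.48 to 0.64) and 0.75 (0.70 to 0.79) at 7 dpi and 0.92 (0.85 to 0.997) and 0.76 (0.71 to 0.81) at 21 dpi. All 4 were short of 2-fold. At 21 dpi the ratio of the Gli1+ sort passed 2-fold in 5 of 12 alternative settings, up to 1.36 with TMM scaling, and that of the Gli1- sort in 1 of 11 (1.005). At 7 dpi the ratio of the Gli1- sort passed it in 2 of 12, up to 1.19. Without the Pi16 or Dpp4 cells the ratio at 7 dpi in the Gli1+ sort turned to -0.11.

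Cfd, the protease that activates factor B, was at 0.4 to 7.6 CPM in Pdgfra cells, and in 4 of 6 libraries 62.5% to 95.3% of its UMIs came from a single cell. In the Gli1- library at 21 dpi, 328 of 344 Cfd UMIs were in 1 cell, which also held 17 UMIs of the fat-cell hormone Adipoq. Single cells of the Gli1+ sort held 314 of 421 UMIs at 7 dpi and 136 of 184 at 21 dpi. These cells held 38 and 13 Adipoq UMIs. Without the highest cell of each library Cfd was at 0.2 to 1.9 CPM. The log2 ratio over uninjured was 4.10 (Gli1+) and 1.31 (Gli1-) at 7 dpi and stayed above 0 in all 13 alternative settings, at 1.52 to 5.02 and 0.72 to 1.63. At 21 dpi it was 2.86 and 3.52, and without the highest cell of each library 2.34 and -0.52, so that the ratio of the Gli1- sort turned on 1 cell. The ratio of the Gli1+ sort at 21 dpi turned to -0.52 with at least 2 Pdgfra UMIs and to -0.31 without cells that held markers of another type.

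C7, of the terminal complex, had the largest difference of the 8 genes. It was at 161 CPM without injury in the Gli1+ library and at 3.48 and 4.55 CPM on days 7 and 21, and at 105 CPM without injury and 6.39 and 8.50 CPM after it in the Gli1- libraries. The uninjured and injured libraries did not overlap for C7, and neither did they for C1ra, Cfb and Cfd. The share of all genes without such overlap was not counted. At 7 dpi C7 was 46.3-fold lower in Gli1+ cells (log2 ratio -5.53, -5.75 to -5.32) and 16.5-fold lower in Gli1- cells (-4.04, -4.18 to -3.91). At 21 dpi it was 35.4-fold and 12.4-fold lower. The folds of the Gli1+ sort mix cells of both sexes, and within 1 sex it was 163-fold lower at 7 dpi (Y-linked cells) and 7.54-fold lower at 21 dpi (Xist cells). Few cells held C7. In the uninjured libraries 17.4% (Gli1+) and 18.3% (Gli1-) of Pdgfra cells held a C7 UMI, against 2.06% to 4.07% in the 4 injured libraries, and the 10.8% and 7.42% of cells with at least 3 UMIs held 94.4% and 79.7% of all C7 UMIs.

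Serping1, the C1 inhibitor, was at 1593, 680.2 and 1434 CPM for Gli1+ cells and at 2008, 1205 and 1650.2 CPM for Gli1- cells. As with C1s1, the lowest library of each sort was that of 7 dpi. It was 2.34-fold lower at 7 dpi than without injury in Gli1+ cells (log2 ratio -1.23, -1.25 to -1.21) and 1.67-fold lower in Gli1- cells (-0.74, -0.75 to -0.72). TMM scaling gave -0.94 and thinning -0.89 for the first, so that it was no longer 2-fold. At 21 dpi the ratios were -0.15 and -0.28, and in Gli1+ cells TMM scaling gave 0.29 and thinning 0.06, a turned sign.

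**Figure D3:**
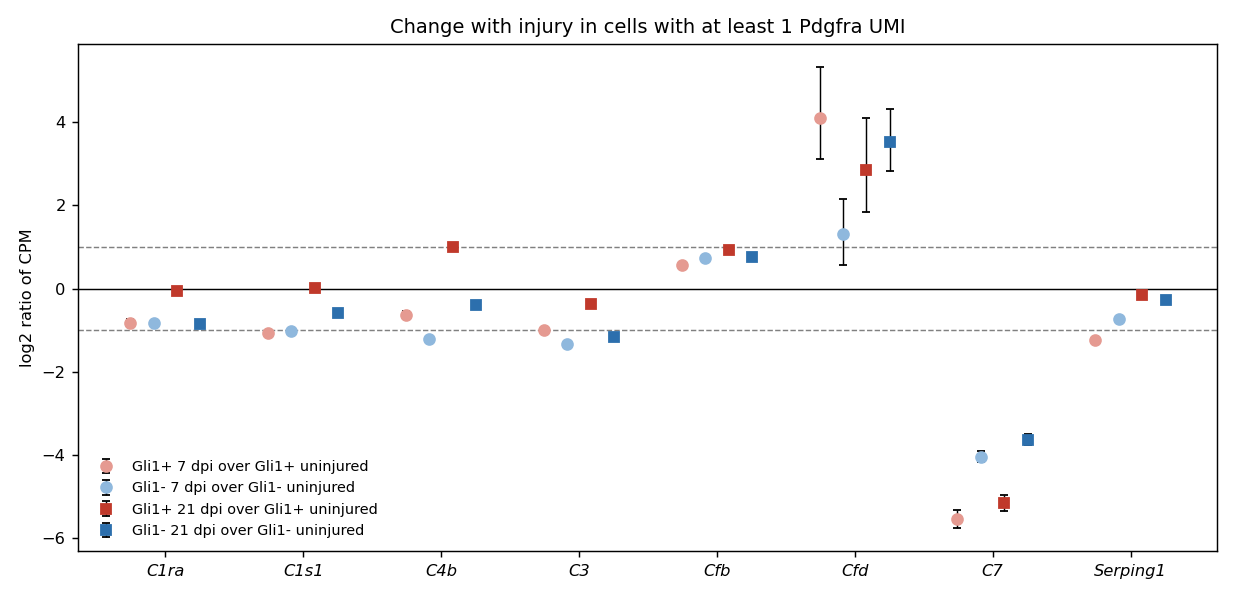
Log2 ratio of CPM in Pdgfra cells of each injured library over the uninjured library of its sort, for the 8 genes; error bars are 95% counting intervals, the solid line is 0 and the dashed lines are the 2-fold limits. C7 lay far below the lower limit in all 4 comparisons, Cfb between 0.56 and 0.92, and the Cfd values rest on few cells.

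Because the libraries differed in sex, the members were also compared within cells of 1 sex. In Y-linked Pdgfra cells, the 7 dpi libraries were below the uninjured libraries for C1s1 (log2 ratio -1.13 in Gli1+ and -1.14 in Gli1- cells), C4b (-1.28 and -1.40), C3 (-0.54 and -1.52) and Serping1 (-1.59 and -0.87). C4b thus passed 2-fold in both sorts within 1 sex, while C3 did so in the Gli1- sort alone. Cfb was above the uninjured level, at 0.62 and 0.66. In Xist Pdgfra cells of the Gli1+ sort, the 21 dpi library over the uninjured one gave 1.31 for C4b, 0.83 for Cfb, -0.59 for C3, -0.07 for Serping1 and -2.92 for C7. No such comparison was possible for Gli1- cells at 21 dpi, nor for 21 over 7 dpi in either sort.

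C7 differed between the sexes in the 1 library that held both. In uninjured Gli1+ cells it was at 476 CPM in 410 Y-linked cells and at 33.7 CPM in 1128 Xist cells, a log2 ratio of -3.82 (-3.98 to -3.66) for Xist over Y-linked cells. A C7 UMI was found in 38.5% of the first and 8.87% of the second, at median depths of 9580.5 and 9194 UMIs per cell. Its injured level was below the uninjured one in each sex of the Gli1+ sort. The other members differed less between these cells. C4b was higher in Y-linked cells (121 against 70.0 CPM), C3 in Xist cells (563 against 325 CPM), and Serping1 was at 1899.7 and 1523 CPM. Cells of different sex came from different mice, so the effects of sex and of the single mouse cannot be told apart, and whether the cells came from different sites was not tested.

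**Figure D4:**
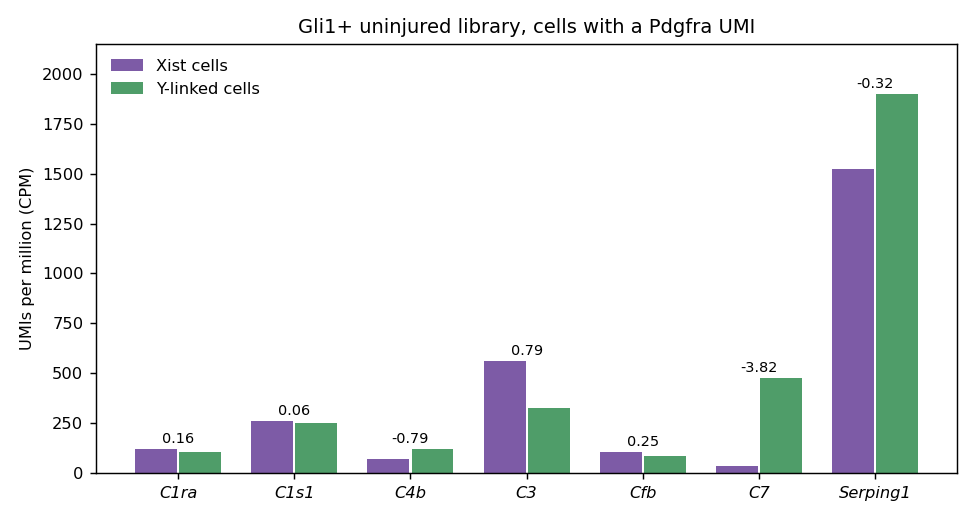
CPM of 7 members in Xist cells and in Y-linked cells among the Pdgfra cells of the uninjured Gli1+ library; the number over each pair is the log2 ratio of Xist over Y-linked cells. C7 was far higher in the Y-linked cells, at 476 against 33.7 CPM, C3 was higher in the Xist cells and C1s1 was alike in both.

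The sorts were compared at each time. In the uninjured libraries, Gli1+ held 1128 Xist Pdgfra cells and Gli1- 0, so the 2 did not draw on all the same mice. Whether their Y-linked cells came from the same mice is not known. For the uninjured sorts, effects of sort and of the mice sampled cannot be told apart. Without injury, C4b and C3 were 2.71-fold and 2.46-fold lower in Gli1+ than in Gli1- cells, 2 of 7 members, where 3.26% of all genes were at least 2-fold lower, and 0 of 7 were higher, where 6.69% were. Among Y-linked cells of both libraries C4b was 1.96-fold lower, short of 2-fold, and C3 3.72-fold lower. C1ra and C1s1 were 1.61-fold and 1.52-fold lower, and C7 was 1.53-fold higher, which became 2.12 on the log2 scale among Y-linked cells. At 7 dpi all 7 members were lower in Gli1+ cells, by 0.61 (Cfb) to 0.97 (C3) on the log2 scale, and 0 of 7 reached 2-fold, with 1.09% of all genes lower and 1.38% higher. However, C3 passed 2-fold in 3 of 12 alternative settings, and C4b, C7 and Serping1 in 1 of 12 each. At 21 dpi the sorts were nearly alike for C1ra (log2 ratio 0.10), C1s1 (259 and 259.8 CPM) and C4b (-0.04), while C3 was 1.44-fold and C7 1.87-fold lower in Gli1+ cells, and 0 of 7 were 2-fold apart, with 1.01% of all genes lower and 0.649% higher. The log2 ratio of C7 (-0.90) passed 2-fold in 4 of 12 alternative settings, down to -1.64 with cells thinned to 2000 UMIs. C3, Cfb and Serping1 were lower in the Gli1+ library at every time, also within 1 sex. In Y-linked cells without injury and at 7 dpi and in Xist cells at 21 dpi, the log2 ratio was -1.89, -0.91 and -0.51 for C3. It was -0.56, -0.60 and -0.26 for Cfb and -0.07, -0.79 and -0.19 for Serping1. C4b was also lower within 1 sex without injury and at 7 dpi (-0.97 and -0.85), and its interval at 21 dpi included 0 (-0.02, -0.06 to 0.02).

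Shares of cells with a UMI were compared after each cell was thinned to 2000 UMIs, which left out 17 to 133 Pdgfra cells per library. The share for C3 was 34.4%, 29.3% and 36.9% among Gli1+ Pdgfra cells (uninjured, 7 and 21 dpi) against 53.1%, 42.8% and 44.2% among Gli1- Pdgfra cells, with unthinned shares of 52.8% to 75.1%. For Serping1 it was 80.6%, 61.3% and 81.8% with the Gli1+ sort and 91.7%, 77.5% and 86.4% with the Gli1- sort. The lowest share of each sort was again at 7 dpi. The T cells of the uninjured Gli1+ library held C3 in 0.74% and Serping1 in 2.33% of cells, a background for that library alone. Pdgfra cells held 28.3% of all UMIs there and 58.4% to 78.3% in the other libraries, for which no such background is given. For Cfb the share was 13.4%, 22.1% and 26.4% in Gli1+ cells and 14.3%, 30.1% and 27.8% in Gli1- cells. C4b was found in 9.0% of uninjured Gli1+ cells and 24.0% at 21 dpi, and in 19.5% and 25.8% of Gli1- cells, so that in the Gli1- sort its share was higher at 21 dpi although its CPM was lower, and no order is read from it. For Cfd the share was 0.06% to 0.42%, below that of endothelial cells in 4 of 6 libraries.

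The 8 genes were mostly seen a few at a time. A thinned Pdgfra cell held on average 2.08, 1.61 and 2.32 of the 8 with the Gli1+ sort and 2.65, 2.25 and 2.47 with the Gli1- sort, and 25.1% of Gli1+ cells at 7 dpi held none, against 11.8% without injury. C3 and Serping1 were found together in 24.6% to 50.8% of cells. The spread over cells was read from the Fano factor of thinned counts (variance over mean, 1 for pure counting). It was 1.11 to 1.17 for C1ra and 1.22 to 1.36 for C1s1, near pure counting, against 3.02 to 5.77 for C3, 2.20 to 3.29 for Serping1, 1.37 to 2.78 for C4b and 1.63 to 5.07 for C7. The factor rises with the level of a gene, so it does not rank members of different level by how evenly they were spread.

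Subsets of the Pdgfra cells were read from single genes. Pi16 and Dpp4 mark a widespread adventitial fibroblast, Tppp3 the cells of the tendon sheath, Scx with Fmod tendon cells, Tnn cells with the matrix gene tenascin-W and Mki67 or Top2a dividing cells. In the 4 injured libraries, cells with Pi16 or Dpp4 held more of all 7 members than the other Pdgfra cells. For C4b the log2 ratio was 1.53 and 1.64 at 7 and 21 dpi in Gli1+ cells and 1.07 and 1.35 in Gli1- cells. C3 was higher by 1.28 and 0.59 in Gli1+ cells and by 1.07 and 0.82 in Gli1- cells. Without injury the log2 ratio was 0.31 (Gli1+) and -0.34 (Gli1-) for C4b and 0.55 and 0.42 for C3. These were lower than after injury, but for C3 in Gli1+ cells the value was close to the 0.59 of 21 dpi. Cells with Scx and Fmod went the other way after injury. C3 was at 112 CPM in the 812 such cells of the Gli1+ library at 7 dpi and at 133 CPM in the 898 of the Gli1- library, log2 ratios of -1.32 and -2.07 against the other Pdgfra cells. In Tnn cells the log2 ratio of C3 lay between -1.40 and -1.07 and that of Serping1 between -1.21 and -0.82. Dividing cells were also lower in the injured libraries, with -1.13 to -0.85 for C3 and -1.14 to -1.13 for C4b. Their median depth was 14086 to 16854.5 UMIs per cell, against 9458.5 to 11934 over all Pdgfra cells of those libraries.

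Lower levels of C1s1 and C3 at 7 dpi were also seen within subsets. In cells with Pi16 or Dpp4 the log2 ratio of 7 dpi over uninjured was -0.78 and -0.85 for C1s1 (Gli1+ and Gli1-) and -0.68 and -1.17 for C3, smaller than over all Pdgfra cells. In Tppp3 cells without Pi16 and Dpp4 it was -1.40 and -1.22 for C1s1 and -1.39 and -1.80 for C3. Cfb in Pi16 or Dpp4 cells was 1.04 and 1.01, past 2-fold in both sorts, and in the Tppp3 cells -0.10 and 0.12. Cells with a Gli1 UMI numbered 93 to 258 per library. In the Gli1+ libraries they were 12.1%, 1.94% and 3.52% of Pdgfra cells (uninjured, 7 and 21 dpi), and the library with 258 was a Gli1- one. They did not stand apart for C1ra, C1s1 and Serping1, whose log2 ratios against the other Pdgfra cells lay between -0.29 and 0.28. C7 was higher in cells with a Gli1 UMI at 21 dpi, by 2.29 in the Gli1+ and 1.69 in the Gli1- sort. All Pdgfra cells of these libraries held 261 and 505 C7 UMIs, with up to 23 and 29 in 1 cell. Whether these ratios turned on single cells was not tested. The acute phase gene Saa3 marked 54 Pdgfra cells of the uninjured Gli1- library, in which C3 was at 3149.5 CPM (log2 ratio 1.46), Cfb at 631 CPM (2.40) and C4b at 618 CPM (1.47). At 21 dpi, when 4630 cells of that sort held Saa3, the ratio was -0.09 for C3, 0.47 for Cfb and -0.54 for C4b.

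**Figure D5:**
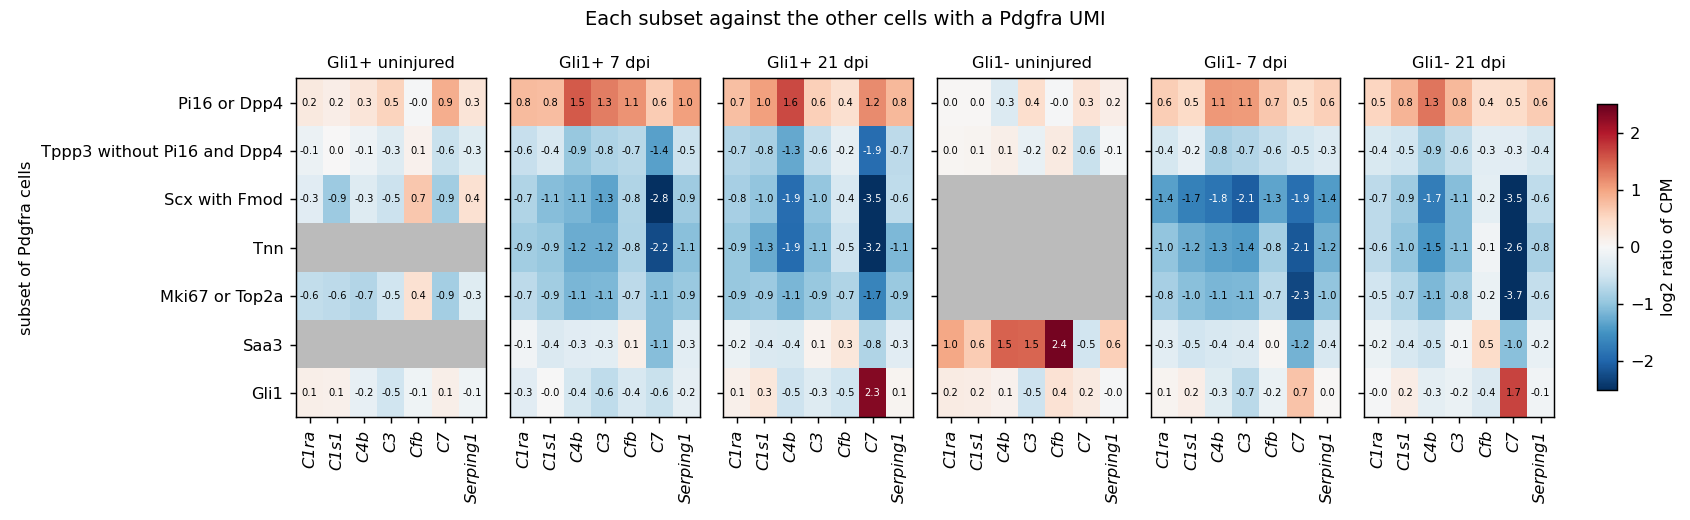
Log2 ratio of CPM in each subset over the other Pdgfra cells of the same library (rows are subsets, columns are 7 members, panels are libraries; red is higher, blue lower, grey marks subsets under 50 cells, and colours end at 2.5). Pi16 or Dpp4 cells were higher for all 7 members in the 4 injured libraries, and Scx with Fmod, Tnn and Mki67 or Top2a cells were lower for C3 in those libraries.

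Of 47 other complement genes, 14 had a mean of at least 5 CPM in Pdgfra cells. At 7 dpi 2 of the 14 were at least 2-fold higher in each sort, where 10.3% (Gli1+) and 11.0% (Gli1-) of all genes were, and 6 at least 2-fold lower, where 14.8% and 11.4% were, with medians of -0.88 and -0.70. At 21 dpi 3 were higher and 6 lower in Gli1+ cells, beside 6.3% and 11.9% of all genes, and 4 were higher and 4 lower in Gli1- cells, beside 9.63% and 11.0%. Of 5 membrane regulators, which protect host cells, 3 were 2-fold lower and 0 higher at 7 dpi in each sort, and at 21 dpi 3 (Gli1+) and 2 (Gli1-) were lower and 1 higher. The 4 fluid-phase regulators went both ways, with 2 higher and 2 lower (Gli1+) and 1 higher and 2 lower (Gli1-) at 7 dpi, and 1 higher and 2 lower and 2 higher and 1 lower at 21 dpi. Cd55, which breaks up the C3-cleaving enzymes, was at 227, 62.2 and 107 CPM and at 206, 89.8 and 95.2 CPM. Cd46 was 2-fold lower at both times in both sorts, with log2 ratios of -1.61 to -1.57. Cr1l, another membrane regulator, had ratios of -0.96 to -0.44, and Csmd1 was 2-fold lower at 7 dpi in both sorts, at -2.36 and -1.12. Cd93 was 2-fold lower too, at -1.66 to -1.22, and is an endothelial gene. Endothelial markers in the Pdgfra cells summed to 331 CPM in the uninjured Gli1- library and to 23.5 to 131 CPM in the others, and their part in the result was not tested.

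Cfi, Masp1 and Cd59a were higher at 21 dpi in both sorts. Cfi, factor I, which degrades C3b, was at 0.7, 5.8 and 11.7 CPM for Gli1+ cells and at 0.9, 11.1 and 15.0 CPM for Gli1- cells. Masp1, a protease of the lectin pathway, was at 28.7, 44.5 and 79.5 CPM and at 8.9, 55.4 and 75.3 CPM, and Cd59a, which blocks the terminal complex, had log2 ratios of 1.19 and 1.79 at 21 dpi. Clu, a chaperone that binds the terminal complex, was at 111, 14.7 and 145 CPM and at 33.1, 16.3 and 201 CPM, lower at 7 dpi and higher at 21 dpi in both sorts. Vtn, which also binds the terminal complex, was 2-fold lower at 21 dpi in both sorts (-1.51 and -2.51). Among genes above 20 CPM, Colec12 had ratios of -0.81 to 0.08 and C2, whose gene lies 85 bases from Cfb, of -0.49 to 0.52. The C1q genes C1qa, C1qb and C1qc were at 17.8, 16.0 and 12.3 CPM in the uninjured Gli1+ library, which was rich in immune cells, and at 0.2 CPM or less in the others. Mbl1, Mbl2, C8a and C8b were at or near 0.

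Lists of inflammatory genes were read in the same cells. Of 9 acute phase and NF-kappa B genes, 6 were 2-fold higher in Gli1+ cells at each time, where 10.3% (7 dpi) and 6.3% (21 dpi) of all genes were, and 4 in Gli1- cells, where 11.0% and 9.63% were. In Gli1+ cells at 7 dpi 1 of the 9 was 2-fold lower, and 0 in the other 3 comparisons. Saa3 was at 5.63, 364 and 5539.6 CPM in the Gli1+ and at 12.6, 393 and 7138 CPM for Gli1- cells, while Nfkbia lay between 990.0 and 1618 CPM and Cxcl1 between 598 and 1604 CPM. Of 10 interferon-responsive genes, 2 were 2-fold higher and 1 lower at 7 dpi in Gli1+ cells (median log2 ratio 0.54), and 0 were higher and 2 lower in Gli1- cells (0.09). At 21 dpi 6 (Gli1+) and 9 (Gli1-) were 2-fold lower, where 11.9% and 11.0% of all genes were, and 0 higher. Irf1 was at 425, 135 and 238 CPM and at 495, 147 and 217 CPM, lowest at 7 dpi like C3 and Serping1, and Gbp2 and Psmb8 were lowest at 21 dpi in both sorts. Of 4 MHC class I genes, 3 (Gli1+) and 2 (Gli1-) were 2-fold lower at 7 dpi, where 14.8% and 11.4% of all genes were, and 2 and 1 at 21 dpi, and 0 were 2-fold higher. B2m was at 459.6, 212 and 293 CPM and at 405, 249.1 and 331 CPM, H2-D1 at 424, 148 and 191 CPM and at 425, 176 and 214 CPM, and H2-K1 between 197 and 357 CPM. Among the early-response genes, Fos was at 6409.6, 3090.2 and 4317 CPM for Gli1+ cells, and Jun and Fosb were also highest in the uninjured library of each sort.

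The genes most like each member were read from 30 profiles, the Pdgfra cells and the Pdgfra-negative marker-defined cells of the 6 libraries, on the scale of log2(CPM + 1). The profiles of 1 library share their depth and background, so the values are descriptions. Serping1 was most like C1ra (Pearson r 0.96) and C1s1 (0.96), followed by Tmem100 (0.95), and C1ra and C1s1 had r = 0.94 between them, with Sulf1 (0.93) the next for C1ra. C1s1 was most like Cygb (0.98), followed by Ebf2 (0.96) and Serping1. C3 was most like Dpep1 (0.95), Clec3b (0.94) and Lrrn4cl (0.93), and Cfb most like Serpinb6a (0.95), Igf1 (0.93) and Chst12 (0.92). C4b was less like any gene, with Metrnl at 0.85, Aldh3b1 at 0.83 and Psap at 0.80. C7 reached 0.79 with Smim41, 0.76 with A730056A06Rik and 0.76 with Rtl4, and Cfd 0.71 with Slco5a1, 0.67 with Gm49257 and 0.66 with Tbc1d2b.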

How the data were processed

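Cells from Achilles tendon of Gli1-CreERT2; Ai9 mice were sorted and made into 6 libraries with the Chromium Single cell 3' v3 kit. The deposited values are UMI counts per gene and cell; per the labels they were made by the authors with Cell Ranger 3.1.0 and STAR on mm10, whereas the file headers name version 9.0.0 of the same software. Of the 33696 gene IDs, 5.0% were absent from GENCODE M21. No column of other samples was found.

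Cells were kept with the thresholds of the study, at least 200 genes, 1000 UMIs, a log10 ratio of genes to UMIs of at least 0.7 and at most 5% mitochondrial and 5% haemoglobin UMIs, and doublets were then removed by Scrublet score, the highest 0.8% per 1000 cells of each library. Pdgfra cells held at least 1 Pdgfra UMI. UMIs were summed per library and divided by their total to give CPM, with exact Poisson 95% intervals. The log2 ratio of 2 libraries has an exact binomial interval, and a count of 0 was set to 3 counts. A gene was counted as changed at a log2 ratio of at least 1 in size among genes with a mean of 5 CPM. Types needed at least 50 cells, no Pdgfra UMI and 2 markers of 1 class, each at 5 times its CPM in cells of the same library with 2 or more Pdgfra UMIs. That limit was set after the data were seen, because free keratin RNA reached nearly every cell of the Gli1+ library at 7 dpi. Tenocyte, chondrocyte and bone cells were taken with or without Pdgfra. Sex was read from Xist and 4 Y-linked genes. Shares were taken after thinning to 2000 UMIs.

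The 8 members and the gene lists were chosen with earlier results of these data known. Named were all members, other complement genes 2-fold changed in both sorts or above 20 CPM, the 3 highest genes of each other list and the 3 genes most like each member. For 1 of the other complement genes, values are not reported here. Tested on simulated data for 7 dpi over uninjured (10793 genes, 200 changed by 1.5 or 2 on the log2 scale), all 200 changed genes were counted in each sort, 0.085% (Gli1+) and 0.16% (Gli1-) of unchanged genes were counted, and 95.4% and 95.6% of intervals held the true ratio. The simulated counts held counting error alone, with no spread between mice or libraries, and the changes were set beyond the 2-fold limit. These rates therefore do not measure how often a gene is wrongly counted in the real comparisons. The alternatives are given in the closing section. Python 3.11.15, scanpy 1.11.5, scipy 1.17.1 and edgeR 4.0.16 (for TMM factors only) were used.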

Additional observations from a re-analysis of the deposited data

Results flagged for a closer look

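Differences between the sorts were singled out where a member moved in opposite directions in Gli1+ and Gli1- Pdgfra cells with both counting intervals away from 0. With 1 library per condition, the difference was not tested. For C4b at 21 dpi over uninjured the log2 ratio was 1.003 in Gli1+ cells and -0.39 in Gli1- cells, and the levels of the 2 libraries at 21 dpi were close, at 169.9 and 175 CPM, so that the opposite directions come with different uninjured levels of 84.8 and 229.9 CPM. Among Xist cells of the Gli1+ sort the ratio was 1.31, and without Pi16 or Dpp4 cells it was 0.12. The ratio of the Gli1- sort sets Xist cells against Y-linked cells and has no version within 1 sex. In the uninjured Gli1+ library, the log2 ratio of C4b for Xist over Y-linked cells was -0.79. Effects of sex and injury thus cannot be told apart in the Gli1- ratio. The directions were no longer opposite with cells thinned to 2000 UMIs and with each cell given equal weight, where the ratio of the Gli1- sort was 0.13 and 0.12. For Cfd at 21 over 7 dpi the log2 ratio was -1.24 in Gli1+ cells and 2.21 in Gli1- cells. Of the Cfd UMIs of the Gli1- library at 21 dpi, 95.3% were in a single cell, and without the highest cell of each library the ratio of the Gli1- sort was -2.15.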

How the results depend on the processing

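Of 72 log2 ratios of the 8 members, 5 had the other sign with TMM scaling, 4 with relative log expression scaling, 2 with totals without the 50 highest genes, 3 with at least 2 Pdgfra UMIs, 3 with no doublet removal, 1 without chondrocyte or bone cells, 7 with cells thinned to 2000 UMIs, 5 with each cell given equal weight, 5 without Pi16 or Dpp4 cells, 7 without cells that held markers of another type, and 1 with no cell filters. So did 1 of 16 ratios among Xist cells, 1 of 32 among Y-linked cells and 3 of 9 of Cfd without its highest cell in each library. TMM moved the median of all genes by 0.29, 0.44 and 0.14 in the Gli1+ sort (7 dpi and 21 dpi over uninjured, 21 over 7 dpi), by 0.12 and 0.18 in the Gli1- sort (7 and 21 dpi over uninjured) and by -0.22 for Gli1+ over Gli1- without injury. Of the ratios reported as at least 2-fold, those that turned sign were all of Cfd, with values of -0.52 for Gli1+ 21 dpi over Gli1+ uninjured with at least 2 Pdgfra UMIs, -0.31 for Gli1+ 21 dpi over Gli1+ uninjured without cells with markers of another type, -1.20 for Gli1- 21 dpi over Gli1- uninjured without cells with markers of another type, -2.23 for Gli1- 21 dpi over Gli1- 7 dpi without cells with markers of another type, -0.52 for Gli1- 21 dpi over Gli1- uninjured without the cell with the most Cfd UMIs in each library, -2.15 for Gli1- 21 dpi over Gli1- 7 dpi without the cell with the most Cfd UMIs in each library. The cause was not tested.

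Counts of genes at least 2-fold apart moved by over 1.5 times as follows, with the count as reported in brackets. With no filter on low values, the comparisons over all genes gave for Gli1+ 7 dpi over Gli1+ uninjured 2925 higher (from 1116) and 8460 lower (from 1594), Gli1+ 21 dpi over Gli1+ uninjured 1691 higher (from 680) and 8688 lower (from 1287), Gli1+ 21 dpi over Gli1+ 7 dpi 2554 higher (from 343) and 4709 lower (from 448), Gli1- 7 dpi over Gli1- uninjured 3256 higher (from 1185) and 6651 lower (from 1233), Gli1- 21 dpi over Gli1- uninjured 3164 higher (from 1039) and 5981 lower (from 1183), Gli1- 21 dpi over Gli1- 7 dpi 3594 higher (from 328) and 3233 lower (from 284), Gli1+ uninjured over Gli1- uninjured 5644 higher (from 722) and 1461 lower (from 352), Gli1+ 7 dpi over Gli1- 7 dpi 3402 higher (from 149) and 995 lower (from 118), Gli1+ 21 dpi over Gli1- 21 dpi 2270 higher (from 70) and 2284 lower (from 109). With a log2 ratio of 0.58 as the limit, the comparisons over all genes gave for Gli1+ 7 dpi over Gli1+ uninjured 2176 higher (from 1116) and 3026 lower (from 1594), Gli1+ 21 dpi over Gli1+ uninjured 1550 higher (from 680) and 3030 lower (from 1287), Gli1+ 21 dpi over Gli1+ 7 dpi 926 higher (from 343) and 1229 lower (from 448), Gli1- 7 dpi over Gli1- uninjured 2281 higher (from 1185) and 2470 lower (from 1233), Gli1- 21 dpi over Gli1- uninjured 1966 higher (from 1039) and 2453 lower (from 1183), Gli1- 21 dpi over Gli1- 7 dpi 861 higher (from 328) and 903 lower (from 284), Gli1+ uninjured over Gli1- uninjured 1537 higher (from 722) and 831 lower (from 352), Gli1+ 7 dpi over Gli1- 7 dpi 290 higher (from 149) and 354 lower (from 118), Gli1+ 21 dpi over Gli1- 21 dpi 112 higher (from 70) and 252 lower (from 109). With a log2 ratio of 0.58 as the limit, the comparisons over the members gave for Gli1+ 7 dpi over Gli1+ uninjured 6 lower (from 3), Gli1+ 21 dpi over Gli1+ uninjured 2 higher (from 1), Gli1+ 21 dpi over Gli1+ 7 dpi 5 higher (from 3), Gli1- 7 dpi over Gli1- uninjured 1 higher (from 0), Gli1- 21 dpi over Gli1- uninjured 1 higher (from 0), Gli1- 21 dpi over Gli1- 7 dpi 1 higher (from 0), Gli1+ uninjured over Gli1- uninjured 1 higher (from 0) and 4 lower (from 2), Gli1+ 7 dpi over Gli1- 7 dpi 7 lower (from 0), Gli1+ 21 dpi over Gli1- 21 dpi 1 lower (from 0). With TMM scaling, the comparisons over all genes gave for Gli1+ 7 dpi over Gli1+ uninjured 1788 higher (from 1116) and 1022 lower (from 1594), Gli1+ 21 dpi over Gli1+ uninjured 1605 higher (from 680) and 623 lower (from 1287), Gli1+ uninjured over Gli1- uninjured 534 lower (from 352). With TMM scaling, the comparisons over the members gave for Gli1+ 7 dpi over Gli1+ uninjured 1 lower (from 3), Gli1+ 21 dpi over Gli1+ uninjured 2 higher (from 1), Gli1- 21 dpi over Gli1- uninjured 1 lower (from 2), Gli1+ 7 dpi over Gli1- 7 dpi 1 lower (from 0). With at least 2 Pdgfra UMIs, the comparisons over the members gave for Gli1+ 21 dpi over Gli1+ 7 dpi 1 higher (from 3). Without cells with markers of another type, the comparisons over the members gave for Gli1+ 21 dpi over Gli1- 21 dpi 1 lower (from 0). 

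Each condition was 1 library, so no replicate was left out, and a fit that pairs the sorts by time over the 6 libraries was not run. The depth of 18111456 to 84505219 UMIs in Pdgfra cells makes counting error small for the members other than C7 and Cfd. C7 had 193 to 3544 UMIs and Cfd 8 to 421. The intervals take UMIs as independent, yet 192 cells held 94.4% of the C7 UMIs of the uninjured Gli1+ library. Error from the sampling of cells is therefore not in them, and the spread between mice is not known.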

Other observations

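The following values were looked up after the levels of C7 were seen. In the uninjured libraries, Pdgfra cells with at least 3 C7 UMIs (192 in the Gli1+ and 379 in the Gli1- library) also held more of 6 other members than cells with no C7 UMI. C4b was at 233 against 59.95 CPM in the Gli1+ library and at 587 against 163 CPM in the Gli1- library, 3.89-fold and 3.6-fold higher. Serping1 was 2.0-fold and 1.6-fold higher, Cfb 1.75-fold and 2.3-fold, C3 1.31-fold and 2.21-fold, C1ra 1.31-fold and 1.6-fold, and C1s1 1.25-fold and 1.24-fold. Sfrp4, a secreted Wnt antagonist, was 2.98-fold and 8.58-fold higher, and Plcxd3 12.4-fold and 17.5-fold. At least 3 C7 UMIs were found in 29.0% of Y-linked and 3.28% of Xist cells of the uninjured Gli1+ library, so that this comparison is also one between sexes and mice, whereas the Gli1- library was Y-linked. Median depths were 10928.5 against 8670.0 UMIs per cell in the Gli1+ library and 7823 against 5758.5 in the Gli1- library.

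In the injured libraries such cells were few, 50 and 53 in the Gli1- libraries at 7 and 21 dpi, and in these C3 was 2.17-fold and 2.73-fold and C4b 2.03-fold and 3.27-fold higher than in cells with no C7 UMI. Pi16 or Dpp4 was found in 67.7% of the C7 cells of the uninjured Gli1+ library and in 50.3% of the cells without C7, and in 53.6% and 38.9% in the Gli1- library.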
